A study of Homo sapiens with 3 samples.

Results

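The loci of 10 genes known for the pluripotent state (LIN28A, LEFTY1, SOX2, TDGF1, ZFP42, POU5F1, PRDM14, NANOG, DNMT3B and SALL4) were searched for binding sites of the long non-coding RNA SRA and of the RNA helicase p68. A locus was the gene, with its hg19 ends given in whole kb, plus 50 kb on each side, so that the windows were 102 to 147 kb long and 1.14 Mb in all. Sites that overlapped a window were taken as members. Of 7899 SRA sites, 17 lay in these windows, and of 14131 p68 sites, 27, which makes 44 of 22030 sites.

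The sites came from untreated NTERA2, an established human line from a testicular teratocarcinoma that can be driven to differentiate. SRA was mapped by ChIRP-seq, in which biotinylated oligonucleotides pull down the RNA with its chromatin, and p68, the product of DDX5, by ChIP-seq with an antibody. In both assays 3 biological replicates were intersected by the authors into 1 list of positions without scores, and sites found with LacZ probes were taken out of the SRA list. Input chromatin was sequenced as a separate sample and is not analysed here. Read depth and the spread between replicates are therefore unknown, no test was run, and the intervals given cover counting error only. The lists hold no expression values, so that the pluripotent identity of the cells could not be checked against its marker genes.

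Pluripotency rests on a small set of transcription factors that bind their own and each other's regulatory DNA. OCT4 (the product of POU5F1), SOX2 and NANOG form its core, with PRDM14, SALL4 and ZFP42 (REX1) around it. LIN28A binds RNA and blocks maturation of let-7, DNMT3B methylates DNA, and TDGF1 (Cripto) and LEFTY1 act in Nodal signalling, the former as a co-receptor and the latter as an inhibitor. Regulatory DNA of such genes can lie many kb from the start site, in the flanks searched here.

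The promoters of SOX2 and NANOG are shown because these are the core factor genes with sites in their windows, while none of those sites covered the 5′ end of either gene. The 250 bases before the start are from RefSeq (GRCh38.p14, the strand of the gene, 5′ to 3′). Capitals mark ATGCAAA or its reverse complement TTTGCAT, the core of the octamer bound by OCT4.
SOX2: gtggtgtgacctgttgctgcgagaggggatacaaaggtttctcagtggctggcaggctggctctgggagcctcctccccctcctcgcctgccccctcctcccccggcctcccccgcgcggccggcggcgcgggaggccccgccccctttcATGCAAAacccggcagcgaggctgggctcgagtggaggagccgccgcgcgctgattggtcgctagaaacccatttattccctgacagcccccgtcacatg
NANOG: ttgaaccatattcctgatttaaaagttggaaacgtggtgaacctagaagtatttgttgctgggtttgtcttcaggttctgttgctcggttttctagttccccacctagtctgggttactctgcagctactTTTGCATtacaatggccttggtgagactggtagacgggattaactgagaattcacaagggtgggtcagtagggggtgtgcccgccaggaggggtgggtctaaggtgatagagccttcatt

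The match began 100 bases before the start in SOX2 and 120 bases before it in NANOG. The same 250 bases of the TDGF1, ZFP42 and DNMT3B promoters held no match. Of all 35116 promoters in the table, 3.94% held this core on either strand in the same 250 bases. Only the full octamer had been planned, and the 7-base core was added after the data were seen. The full octamer ATGCAAAT, searched on both strands of 300 bases that reach 50 bases past the start, was in none of the promoters of the 5 members matched (SOX2, NANOG, TDGF1, ZFP42 and DNMT3B) and in 1.77% of all promoters. Base composition differed widely among these promoters. That of ZFP42 had a GC content of 69.3% with 24 CpG dinucleotides and that of SOX2 63.3% with 20. That of DNMT3B had 61.7% with only 3 CpG, and that of NANOG 46.7% with 5. TDGF1 has 2 promoters in the table, with 2 and 11 CpG. The median over all promoters was 58.7% GC and 14 CpG.

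SRA sites were found at 6 of the 10 loci. LEFTY1 had 7, SOX2 had 4, TDGF1 and PRDM14 had 2 each, and LIN28A and NANOG had 1 each. When chromosomes 1 to 22 and X were divided into tiles of the median window length of 108.5 kb, 13.6% of 26989 tiles held an SRA site. This share differed widely between chromosomes. For tiles of each window's length on its own chromosome, it ran from 0.249% (POU5F1) to 38.5% (LIN28A), and was 21.9% for NANOG. p68 sites were also found at 6 loci, with 10 at LIN28A, 8 at NANOG, 3 each at LEFTY1 and PRDM14, 2 at SALL4 and 1 at ZFP42. The share of tiles with a p68 site was 26.2%. On the chromosome of each locus it ran from 11.8% (POU5F1) to 45.3% (DNMT3B), and was 42.0% for SALL4 and 12.1% for ZFP42. Both kinds of sites occurred at 4 loci (LIN28A, LEFTY1, NANOG and PRDM14), against 8.36% of tiles. Only SRA was listed at SOX2 and TDGF1, and only p68 at SALL4 and ZFP42. POU5F1 and DNMT3B had no site of either list, which was so for 68.5% of tiles. The tiles include stretches without genes, and windows around the other genes of hg19 were not compared, so that the higher shares at these loci are a description and not a property of pluripotency genes.

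**Figure D1:**
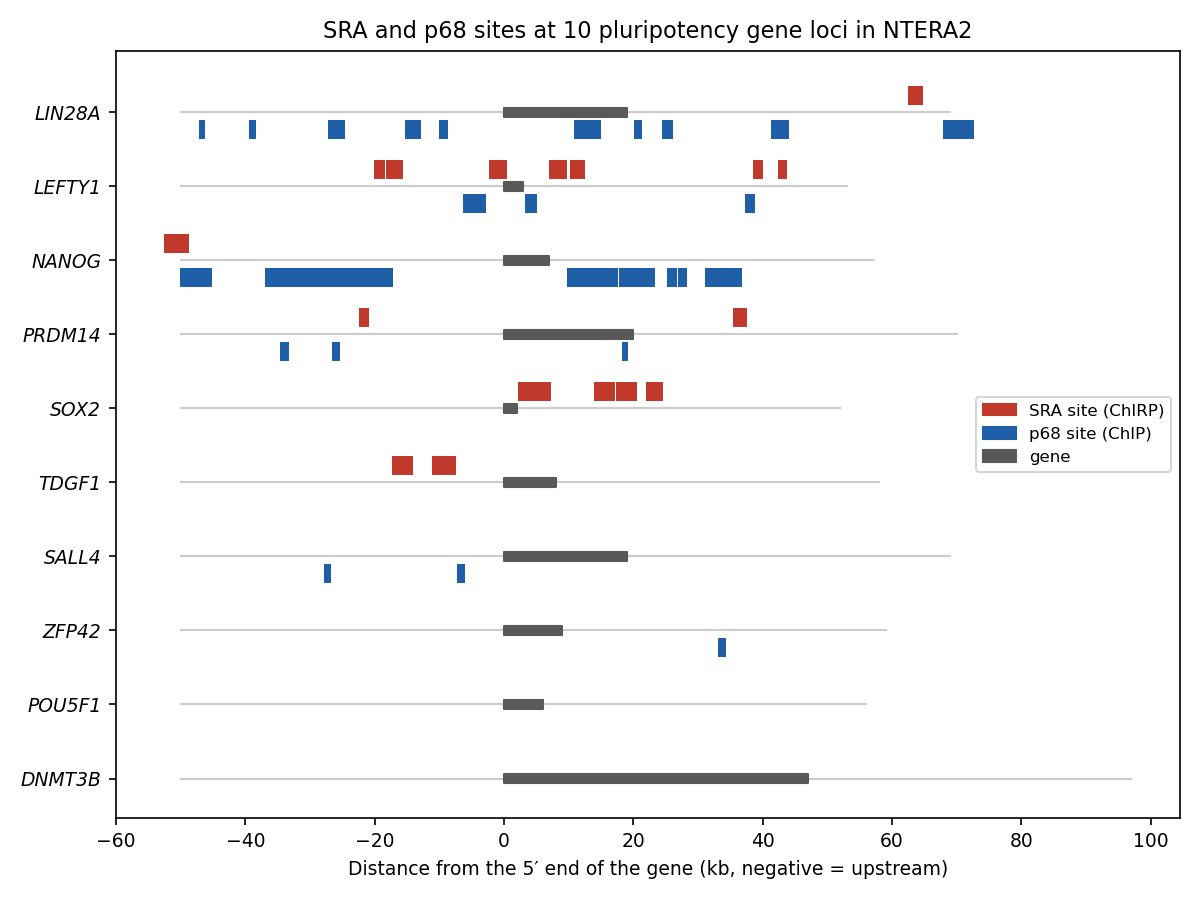
Positions of SRA sites (red, above each line) and p68 sites (blue, below) at the 10 loci, in kb from the 5′ end of each gene in its direction of transcription, with the gene in grey and the window as a thin line. Sites lie mostly in the flanks, in groups at LEFTY1, SOX2 and NANOG, and are absent at POU5F1 and DNMT3B.

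Most sites lay in the flanks, which make up 87.7% of the length searched. With gene ends in whole kb, only 1 of the 17 SRA sites overlapped its gene, at LEFTY1. Of the others, 6 lay upstream of the gene and 10 downstream. Of the 27 p68 sites, 2 overlapped the gene, at LIN28A and PRDM14, with 13 upstream and 12 downstream. The share of sites in the flanks was 94.1% for SRA and 92.6% for p68. The flanks can hold parts of other genes, whose hg19 positions were not available. Upstream and downstream thus give a place and do not assign a site to the gene. The only 5′ end inside a site was that of LEFTY1, which an SRA site covered.

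LEFTY1 had the most SRA sites of the 10 loci and, with gene ends in whole kb, the only one that lay over a gene. The gene, which encodes a secreted inhibitor of Nodal, lies on chromosome 1 from 226074 to 226077 kb and is read toward lower coordinates. An SRA site from 226076599 to 226079340 (2742 bp) covered its 5′ end. A p68 site from 226079726 to 226083284 (3559 bp) followed 385 bp further upstream. On the other side of the gene, a p68 site from 226071853 to 226073810 began 0.19 kb past its 3′ end as given in whole kb. The gene thus lay between a pair of p68 sites, with SRA over its start.

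Further SRA sites lay on both sides of LEFTY1. Upstream, a pair from 226092597 to 226095219 and from 226095343 to 226097149 was separated by 123 bp. Downstream, a pair from 226064469 to 226066839 and from 226067196 to 226070007 was separated by 356 bp. Still further downstream, an SRA site from 226037029 to 226038495 overlapped a p68 site from 226038200 to 226039684 by 296 bp, and the last SRA site ran from 226033318 to 226034618. The 7 sites were 1301 to 2812 bp wide and covered 14.7% of the window. Tiles of the same length covered to at least this extent made up 6.55% of those on chromosome 1. Chromosome 1 is rich in SRA sites, and the density in the window, 67.96 per Mb (95% exact Poisson interval 27.3 to 140 per Mb), included in its interval the 35.8 per Mb of the surrounding 1 Mb on each side.

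SOX2 carried a group of SRA sites on its 3′ side and no p68 site. The gene encodes an HMG-box factor that pairs with OCT4 on DNA, and lies on chromosome 3 from 181430 to 181432 kb within an intron of the non-coding gene SOX2-OT. The widest SRA site, of 5129 bp, was also the nearest and spanned 181432176 to 181437304. Next came a site of 3306 bp at 181443898 to 181447203 and, 117 bp beyond it, another of 3168 bp at 181447321 to 181450488. The last, of 2666 bp, was at 181451958 to 181454623. All lay within a stretch of 22.4 kb downstream of the gene. The first began 0.175 kb past the gene end as given in whole kb, which is finer than the 1 kb to which that end is known. RefSeq gives SOX2 a length of 2.51 kb, against the 2 kb used here, so that this site may overlap the gene.

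The SRA sites of SOX2 stood in a region with few others. Within 1 Mb of the gene there were 7 SRA sites, 4 of them in the window. The density in the window was 39.2 per Mb (95% exact Poisson interval 10.7 to 100 per Mb), against 1.58 per Mb in the surrounding 1 Mb on each side. The latter density rests on 3 sites. Of the 20 intervals computed for the 10 loci and both lists, this was the only 1 that left out the surrounding density. No correction was made for their number. Windows without a site could not do so, as their intervals ran from 0 to at least 25.1 per Mb. The densities around those windows were at most 11.6 per Mb. Sites in a group are not independent, which makes such an interval too narrow. The sites covered 14.0% of the window, and 5 of 1913 tiles of this length on chromosome 3 (0.261%) were covered at least as much. The nearest p68 site was 138 kb from the gene.

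TDGF1, also on chromosome 3 (46616 to 46624 kb), had 2 SRA sites upstream and no p68 site. The farther, of 3217 bp, was at 46598684 to 46601900. The nearer, of 3764 bp, was at 46604850 to 46608613 and lay 7.39 kb before the 5′ end. They covered 6.46% of the window, and 1.99% of tiles of this length on the chromosome were covered at least as much. The density of 18.5 per Mb (95% exact Poisson interval 2.24 to 66.9 per Mb) included the 3.16 per Mb around the locus. The nearest p68 site was 178 kb away. RefSeq, where the gene is named CRIPTO, places LRRC2 upstream of it.

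NANOG had the widest p68 sites of the 10 loci and a single SRA site. The gene, which encodes a homeodomain factor of the pluripotent core, lies on chromosome 12 from 7942 to 7949 kb. Upstream of it, a p68 site of 9481 bp ran from 7904977 to 7914457 and one of 10299 bp from 7914494 to 7924792. Only 36 bp separated them, so that together they spanned 19.8 kb. They were the 12th and the 6th widest of all 14131 p68 sites. The remaining upstream site, of 4951 bp, ran from 7891837 to 7896787.

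On the 3′ side of NANOG, 5 p68 sites lay in a stretch of 27.0 kb. The first ran from 7951766 to 7959582 (7817 bp), the 23rd widest of the list, and began 2.77 kb past the gene end. RefSeq gives NANOG a length of 9.745 kb, against the 7 kb used here, so that this distance depends on the gene ends chosen. The next p68 site ran from 7959718 to 7965411 (5694 bp), 135 bp further on. Narrower sites of 1588 and 1361 bp followed, from 7967146 to 7968733 and from 7968935 to 7970295, and then one of 5767 bp from 7972995 to 7978761. In between, 27.0 kb with the gene and 17.2 kb upstream of it held no p68 site.

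The p68 sites at NANOG covered 43.7% of the window, and 4 of 1248 tiles of this length on chromosome 12 (0.321%) were covered at least as much. Of the 8 sites, 6 were wider than 4 kb, against 2.22% of the whole p68 list. The density of 74.8 per Mb (95% exact Poisson interval 32.3 to 147 per Mb) included the 43.2 per Mb in the surrounding 1 Mb on each side, which is itself above the 10.3 per Mb of the chromosome. The single SRA site, from 7889450 to 7893322 (3873 bp), reached into the far upstream end of the window, 48.7 kb from the gene. It overlapped the farthest upstream p68 site by 1486 bp. The next SRA site was 129 kb from the gene. In RefSeq the neighbours are NANOGNB upstream and SLC2A14 downstream.

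LIN28A had the most p68 sites, spread over a region dense in them. The gene lies on chromosome 1 from 26737 to 26756 kb. A p68 site from 26747758 to 26751926 (4169 bp) lay inside it, 10.8 kb from the 5′ end. Upstream there were 5 p68 sites, the nearest from 26726967 to 26728330 (8.67 kb before the gene) and the widest from 26709778 to 26712433 (2656 bp). Downstream there were 4, the nearest from 26757023 to 26758380 (1.02 kb past the gene) and the widest from 26804929 to 26809636 (4708 bp). The others upstream began at 26689814, 26697578 and 26721657 and were 892, 1085 and 2570 bp wide. The others downstream began at 26761429 and 26778334 and were 1646 and 2682 bp wide. Gaps between neighbouring p68 sites were 2.74 to 23.9 kb. At NANOG they ran from 36 bp to 27.0 kb, and 3 of them were below 500 bp.

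The number of p68 sites at LIN28A was close to that of its surroundings. The window held 84.0 per Mb (95% exact Poisson interval 40.3 to 155 per Mb) and the surrounding 1 Mb on each side 83.2 per Mb. Within 1 Mb of the gene there were 168 p68 and 73 SRA sites. The window had only 1 SRA site, from 26799456 to 26801788 (2333 bp), 43.5 kb past the gene and 3140 bp from the last p68 site. At 8.40 per Mb (0.213 to 46.8 per Mb), the interval for SRA included the surrounding 37.9 per Mb.

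**Figure D2:**
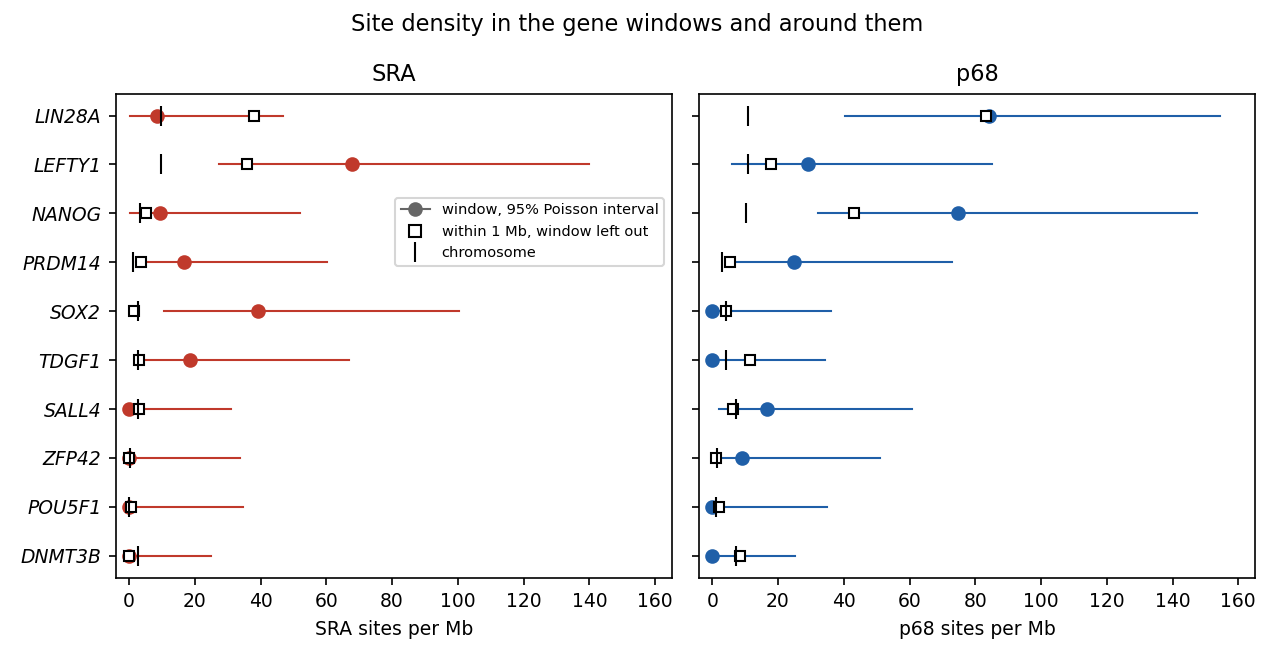
SRA sites (left) and p68 sites (right) per Mb in each gene window (filled circles with 95% exact Poisson intervals), within 1 Mb of the gene with the window left out (open squares) and over the chromosome (ticks). SRA at SOX2, 39.2 per Mb against 1.58 per Mb around it (3 sites), is the only pair in which the interval leaves out the square. For windows without a site the interval starts at 0 and could not leave it out. The p68 density at LIN28A is level with its surroundings.

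At PRDM14, which encodes a zinc finger factor of early germ cells and the naive pluripotent state, the window held 2 SRA and 3 p68 sites. The gene lies on chromosome 8 from 70964 to 70984 kb and is read toward lower coordinates. A p68 site from 70964766 to 70965797 (1032 bp) overlapped it, 18.2 kb from the 5′ end. The SRA sites ran from 70946400 to 70948582 (2183 bp), 15.4 kb downstream, and from 71004951 to 71006392 (1442 bp), 21.0 kb upstream. Near the latter, a p68 site of 1366 bp ran from 71009305 to 71010670, 2912 bp away, and one of 1402 bp from 71017217 to 71018618. SRA density was 16.7 per Mb (95% exact Poisson interval 2.02 to 60.2 per Mb) against 3.68 per Mb around the locus, and p68 density 25 per Mb (5.16 to 73.1 per Mb) against 5.26 per Mb.

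SALL4 and ZFP42 had p68 sites alone, with widths near the list's median of 1185 bp. SALL4 encodes a zinc finger factor and lies on chromosome 20 from 50400 to 50419 kb. A p68 site of 1208 bp at 50425052 to 50426259 lay 6.05 kb upstream of its 5′ end, and another of 1165 bp at 50445734 to 50446898 lay 26.7 kb upstream. The nearest SRA site was 83.8 kb from the gene, outside the window. ZFP42, on chromosome 4 from 188917 to 188926 kb, had a p68 site from 188950102 to 188951269 (1168 bp) 24.1 kb past its 3′ end. The nearest SRA site on that chromosome was 34.7 Mb away. Chromosome 4 held 42 SRA sites in all.

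POU5F1 and DNMT3B had no site within 50 kb. POU5F1 lies on chromosome 6 from 31132 to 31138 kb. In RefSeq its neighbours among protein-coding genes are HLA-C upstream and TCF19 downstream. The nearest p68 site was 367 kb and the nearest SRA site 548 kb from POU5F1, on a chromosome with 4 SRA and 220 p68 sites. For DNMT3B, on chromosome 20 from 31350 to 31397 kb, these distances were 403 kb for p68 and 1033 kb for SRA. Around DNMT3B there were 16 p68 sites within 1 Mb and no SRA site, and around POU5F1 4 p68 sites and 1 SRA site. An empty window means only that no site was left after the replicates were intersected and, for SRA, the LacZ sites removed.

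**Figure D3:**
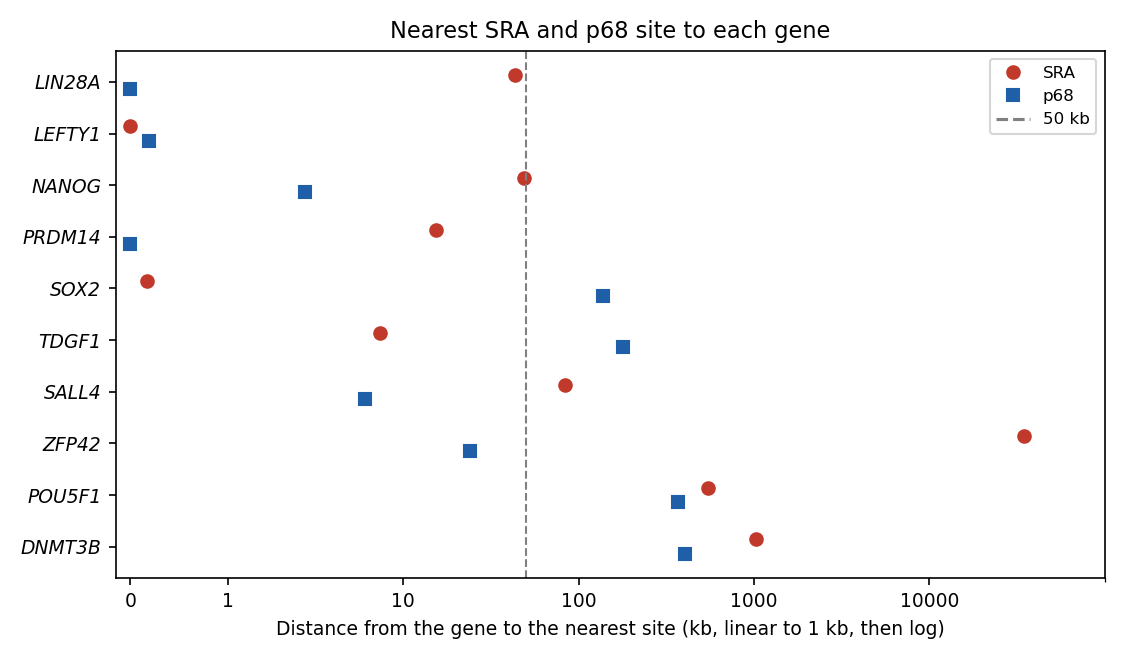
Distance in kb from each gene to the nearest SRA site (red circles) and p68 site (blue squares), on an axis that is linear up to 1 kb and logarithmic beyond, with a dashed line at 50 kb. SRA is nearest at LEFTY1 and SOX2, and p68 at LIN28A, PRDM14 and LEFTY1, while at POU5F1 and DNMT3B the nearest site of either list is at least 367 kb away.

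Shared SRA and p68 sites were found at LEFTY1 and NANOG. With edges at most 500 bp apart counted as shared, as in the methods of the study, 3 of 17 SRA sites had a p68 site (17.6%, 95% Wilson interval 6.19 to 41.0%). These were the SRA site over the start of LEFTY1, the site downstream of LEFTY1 that overlapped p68, and the site at the upstream end of the NANOG window. In the whole list the share was 11.6%, inside that interval. At the 4 loci with both lists, 3 of 11 SRA sites (27.3%, 95% Wilson interval 9.75 to 56.6%) and 3 of 24 p68 sites (12.5%, 4.34 to 31.0%) were shared. Choosing loci that hold both lists itself raises these shares. No whole-list share was computed under the same condition, so they have no background to be read against. The Wilson intervals also take sites of the same locus as independent. Over all 10 loci, p68 had 3 shared sites of 27 (11.1%, 95% Wilson interval 3.85 to 28.1%), against 6.55% of the whole list. The median distance from an SRA site to the nearest p68 site was 9.31 kb, and from a p68 site to the nearest SRA site 41.1 kb. At SOX2 and TDGF1 every SRA site was at least 115 kb from p68.

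The widths of the SRA sites at these genes were spread over those of the list. The median was 2666 bp (quartiles 2183 and 3217 bp), against 2227 bp for all SRA sites, and 4 of the 17 reached the upper quartile of the list. The widest was the SOX2 site of 5129 bp, and 7.79% of the list was at least as wide. The median for p68 was 1646 bp (quartiles 1360 and 4439 bp), against 1185 bp for all p68 sites, and 14 of 27 reached the upper quartile of the list, 1643 bp. Without NANOG the median was 1402 bp, and 8 of 19 reached that quartile. The median at NANOG itself was 5731 bp.

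**Figure D4:**
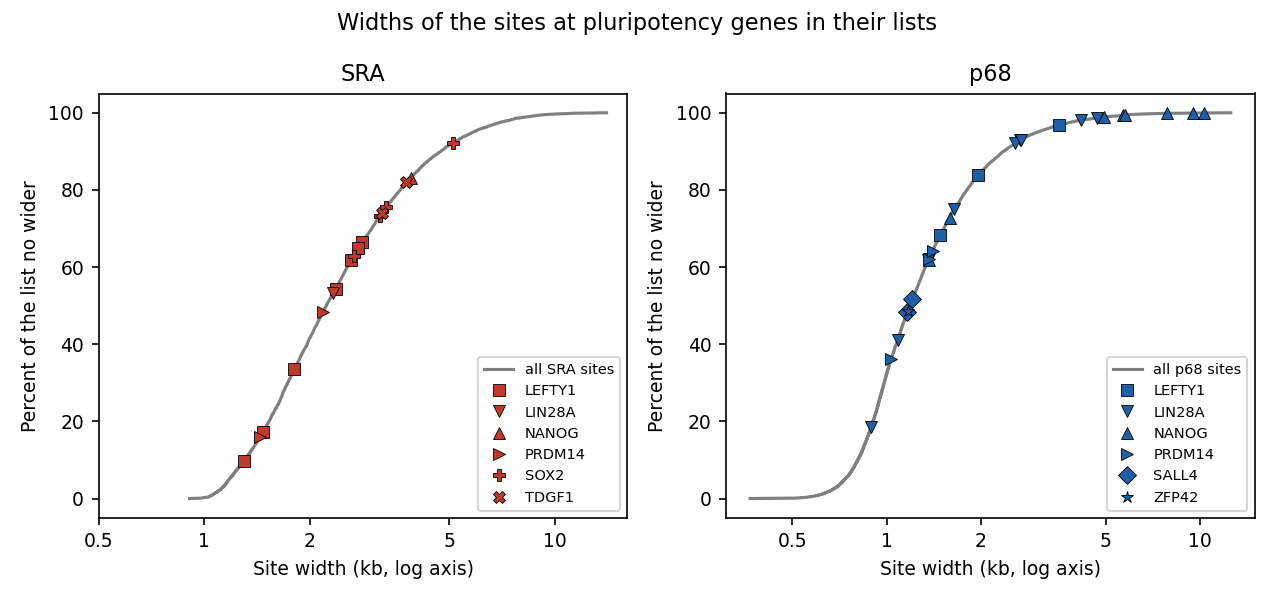
Widths of SRA sites (left) and p68 sites (right) at the loci, as markers by gene on the cumulative curve of the whole list (grey), with width in kb on a log axis and the percent of the list that is no wider. The SRA markers run along most of the curve, whereas the widest p68 markers, up to 10299 bp, are those of NANOG.

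Neighbouring sites of 1 list that nearly touched were found at LEFTY1, SOX2 and NANOG. Of 11 gaps between neighbouring SRA sites within a locus, 3 were at most 500 bp (27.3%), against 8.65% of gaps in the whole SRA list. For p68 it was 3 of 21 gaps, all at NANOG (14.3%), against 3.61%. Gaps within a window cannot exceed its length, which the gaps of the whole list can.

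Over all 10 windows there were 14.9 SRA sites per Mb (95% exact Poisson interval 8.69 to 23.9 per Mb), against 2.70 per Mb of the chromosomes, and 23.7 p68 sites per Mb (15.6 to 34.5 per Mb), against 4.82 per Mb. A few loci decided these values. LEFTY1 and SOX2 held 11 of the 17 SRA sites, and LIN28A and NANOG 18 of the 27 p68 sites. Without LEFTY1 the SRA density was 9.64 per Mb, and without LIN28A the p68 density was 16.7 per Mb. Sites were also dense around some windows. The surrounding 1 Mb on each side held 35.8 SRA sites per Mb at LEFTY1, but 1.58 per Mb at SOX2. For p68 it held 83.2 per Mb at LIN28A and 43.2 per Mb at NANOG. Of the 20 intervals by locus and list, not corrected for their number, only that of SRA at SOX2 left out the surrounding density. Those of windows without a site could not. Reads that map equally well to near-identical copies would be lost to the mapping quality filter, which concerns LEFTY1 (with its paralog LEFTY2), NANOG and POU5F1 (with their pseudogenes), and its part in the counts was not tested.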

How the data were processed

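SRA ChIRP-seq and p68 ChIP-seq of NTERA2 were analysed from 1 deposited list of sites each (chromosome, start and end, with no score). According to the methods text, single-end reads of 50 bp were aligned to hg19, duplicates and reads with a mapping quality below 20 were discarded with SAMtools, and peaks were called by MACS 1.4.2 at p-value thresholds of 1e-04 (SRA) and 1e-05 (p68). Replicates were intersected with ChIPpeakAnno, and LacZ sites were subtracted from SRA with bedtools. Processing notes of the submitters also name CASAVA 1.8.2. The aligner is not given in the sources used here. Differing thresholds make the numbers of SRA and p68 sites not comparable as occupancy.

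Coordinates were read as 0-based and are printed 1-based. Gene ends were known to 1 kb. The direction of transcription came from the RefSeq promoter table for 5 genes and from general knowledge for the other 5. RefSeq tables (GRCh38.p14) gave promoters, names and neighbours, but no coordinates. The NANOG gene of that table is longer than the one used here by 2.74 kb. Tiles ran from the first to the last site of a chromosome. Wilson and exact Poisson intervals (95%) cover counting error. The genes and gene lists were chosen with earlier results of these data known, and all sites in the windows are named or counted. The 7-base motif and the omission of single loci were added after the data were seen. A wider list of pluripotency and lineage genes needs an hg19 annotation and was not run. The counting functions were tested on simulated data. Python 3.11.15, numpy 2.4.6, pandas 2.3.3, scipy 1.17.1 and matplotlib 3.10.9 were used.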

Additional observations from a re-analysis of the deposited data

How the results depend on the processing

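The counts depended on the flank added to each gene. With the gene alone there were 1 SRA and 2 p68 sites, at 1 and 2 loci and with both at 0. A flank of 10 kb gave 5 SRA sites at 3 loci and 9 p68 sites, with both at 1 locus, and a flank of 25 kb left 2 loci with both. A flank of 100 kb gave 71 p68 sites, with 17 of the 44 added at NANOG and 15 at LIN28A, and still no site at POU5F1 or DNMT3B. Counting sites by their midpoints dropped the SRA site of NANOG (5 loci with SRA, 3 with both), and moving gene ends by 1 kb added 1 p68 site. With midpoints at most 500 bp apart, 0% of SRA and 0% of p68 sites were shared. Overlap of 1 bp gave 11.8% and 7.41%, and a gap of 2 kb 23.5% and 14.8%. Tiles of 50 kb held SRA in 8.49% and p68 in 15.9%, and tiles of 200 kb in 18.9% and 36.8%, as tile length sets the share. Leaving out each locus in turn moved the SRA density between 9.64 (without LEFTY1) and 17.1 per Mb and the p68 density between 16.7 (without LIN28A) and 27.2 per Mb. No paired analysis was possible because neither list keeps its replicates apart, and for the same reason no replicate could be left out.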
